A study of Mus musculus with 6 samples.

Results

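Chromatin and transcription regulators make up a large share of the genes in which loss-of-function variants are linked to autism and related neurodevelopmental disorders. The 31 genes described here are 25 such regulators and 6 autism risk genes that act on proteins or RNA, chosen as a list of gene symbols and matched by Ensembl identifier, through the GENCODE M21 annotation of GRCm38, to rows of a striatal RNA-seq table that lists 46078 genes. All 31 were matched, and all 31 reached the limit for testing, a mean of 10 normalized read counts across 6 libraries, as did 17605 genes in all. The table compares the striatum of male Shank3 transgenic (TG) mice aged 12 weeks, which carry an EGFP-tagged Shank3 transgene (its promoter is not given in the sources used here), with that of male wild-type (WT) mice of the same age. Both groups were on a C57BL/6J background, with 3 mice and 3 libraries each. Shank3 is a scaffold protein of the excitatory postsynapse and itself a gene of the autism spectrum.

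Most proteins of this list act on the packing of DNA at several levels. Remodelers use ATP to slide or evict nucleosomes, methyltransferases write marks on histone tails, readers and co-regulators bind those marks or recruit enzymes to them, and DNA-binding factors bring them to defined sites. Many of the genes are dosage-sensitive, since losing a single copy is enough to cause disease in people, and neurons continue to express most of them in adult life. In the striatum, most neurons are inhibitory medium spiny neurons, and bulk tissue also holds RNA of glia and other cells. A change in bulk tissue cannot tell fewer cells of a type from less RNA per cell.

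The libraries held between 27689589 and 36647626 counts on genes. Shank3 had 29891, 28309 and 26044 normalized read counts among TG mice, against 13807, 12918 and 13865 among WT mice, 2.07-fold higher (log2 fold change 1.05, standard error (SE) 0.06, limma adjusted P = 7.04e-05), and it was the single gene called by limma at an adjusted P value under 0.05. Medium spiny neuron markers were high in all 6 libraries, with Pde10a between 31500 and 45595. TG replicate 1 stood apart, with summed choroid plexus markers of 15900 normalized read counts against 613.5 to 2074 in the other 5 libraries and summed medium spiny neuron markers of 135900 against 159800 to 189800. TG replicate 2 had the second highest choroid plexus sum, 2074, and the lowest sum of cortical excitatory neuron markers, 31170 against 36140 to 43820 in the other libraries. Cortical markers were high throughout, with Slc17a7 between 20240 and 29848. None of the 12 choroid plexus, 10 medium spiny and 8 cortical excitatory neuron markers was at 0. By genotype, 12 of 12 choroid plexus markers were higher in TG mice (median log2 fold change 1.322), against 1 of 10 medium spiny neuron markers (-0.125). The rise in choroid plexus markers was not in all TG mice, since the sum in TG replicate 3, 700.1, lay inside the WT range of 613.5 to 971.9. Of the cortical markers 3 of 8 were higher (-0.012), of microglia markers 0 of 6 (-0.112) and of oligodendrocyte markers 2 of 7 (-0.043). Astrocyte and endothelium markers had 3 of 6 higher each.

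Of the 31 risk genes, 0 were called as changed between Shank3 TG and WT striatum at a limma adjusted P value under 0.05 (0.00568% of all genes tested were), with adjusted P values of at least 0.971. DESeq2 and edgeR on the recovered reads called 0 as well, beside 7 and 1 of the 17605 genes tested. In Shank3 TG mice 13 members had a higher mean and 18 a lower mean, 41.9% higher against 49.2% of all genes tested, and the median log2 fold change was -0.01, against 0.00 for all genes tested (-0.002 before rounding). At an unadjusted limma P value under 0.05 there were 2 higher members, Fmr1 and Cul3, and 3 lower ones, Adnp, Auts2 and Phf21a. These are 6.45% and 9.68% of the members, against 1.98% of all genes tested for the higher and 2.33% for the lower direction. DESeq2 had 3 members and edgeR 5 at an unadjusted P value under 0.05, beside 2.45% and 4.35% of all genes tested. The limma count of 5 (beside 4.31% of all genes) was 3 without TG replicate 1 (7.54%), 1 without TG replicate 3 (2.85%), 1 without WT replicate 2 (3.73%) and 0 without WT replicate 3 (3.34%).

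The intervals bounded the size of a change. For 30 of the 31 members, all but Adnp, the 95% interval of the log2 fold change lay between -0.25 and 0.26, so that a difference beyond 1.2-fold lay outside it. The interval of Adnp reached -0.84. A halving or doubling, a log2 fold change of 1 in size, lay outside the interval of each of the 31. Within a genotype, the median member had an SD of 0.06 between mice (log2 scale), against 0.11 for all genes tested, whose median count was lower (488 against 2983 normalized read counts). For the 8580 genes tested with means between 500.4 and 19950 normalized read counts, the median SD was 0.07. Counting error alone would give a median SD of 0.03 for the members.

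**Figure D1:**
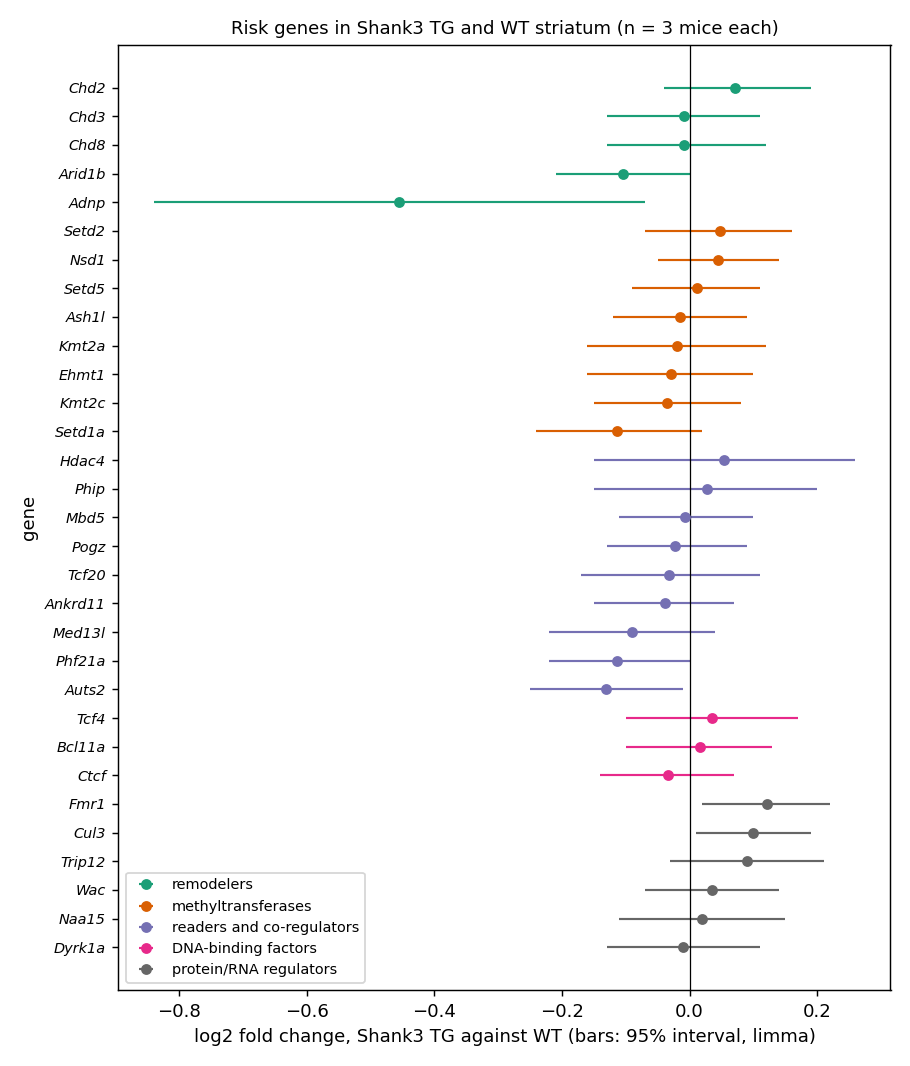
Striatal log2 fold change (TG over WT) of each of the 31 risk genes (points) with its 95% interval from limma (bars), grouped by role, 3 mice per genotype. Apart from Adnp at -0.46, the points lie between -0.13 (Auts2) and 0.12 (Fmr1), and the intervals of 5 genes leave out 0.

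Of the 5 chromatin remodelers and their partners, 1 had a higher and 4 a lower mean in TG mice. Chd8, which reads methylated histone H3 and is among the genes most often hit in autism, had 2995, 3383 and 3262 normalized read counts among TG mice, against 3112, 3212 and 3373 among WT mice. Its groups overlapped, with a log2 fold change of -0.01 (SE 0.06). Chd3, a motor of the NuRD deacetylase complex, was the most abundant member per kb of exon, with 20608, 18385 and 18972 normalized read counts among TG mice, against 19619, 19828 and 18799 among WT mice. Here the highest and the lowest library were both TG, and the log2 fold change was -0.01 (SE 0.06). Chd2, which deposits the histone variant H3.3, had a log2 fold change of 0.07 (SE 0.05) with 2473 ± 41.6 normalized read counts in TG and 2355 ± 124 in WT mice (SD, n = 3 each). An RNA on the same strand, 1810026B05Rik, shares 18.38% of its exon bases.

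Arid1b, the DNA-binding subunit of the BAF remodeling complex, had 2760, 2837 and 2633 normalized read counts among TG mice, against 2904, 3007 and 2931 among WT mice. The groups did not overlap, with TG below WT (P = 0.1 by a two-sided exact permutation test, which cannot go lower with 3 mice a group). The log2 fold change was -0.10 (SE 0.05, limma adjusted P = 0.971), and it ranged from -0.13 to -0.08 when single mice were left out. Adnp, a homeobox protein that recruits remodelers to heterochromatin, was the exception of the list in level. It had 62.64, 64.07 and 59.4 normalized read counts among TG mice, against 68.67, 104.7 and 86.39 among WT mice, while the other 30 members had means between 998 and 19368. All TG values lay below all WT values, and WT replicate 2 was the highest. The log2 fold change was -0.46 (SE 0.17, limma adjusted P = 0.971) and lay between -0.61 and -0.31 with each mouse left out.

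The level of Adnp has to be read with its gene model. In GENCODE M21 a protein-coding gene on the same strand, Gm20716 (chromosome 2, 168180986 to 168230364), shares 4393 of the 5350 exon bases of Adnp, 82.11%, and the table lists Gm20716 at 0 in all 6 libraries. HTSeq in its default mode sets aside reads that fall on exons of more than 1 gene, but the mode used and the annotation release are not given in the sources used here. On the 957 exon bases not shared, the mean of 74.3 would be 77.7 normalized read counts per kb, and over all exon bases it is 13.9. Whether reads set aside account for the low value was not tested, and the values of Adnp describe at most the part of its reads that was counted.

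Of the 8 histone methyltransferases and SET-domain proteins, 3 had a higher and 5 a lower mean. Kmt2a and Kmt2c methylate lysine 4 of histone H3 at promoters and enhancers. Kmt2a had 8850, 9423 and 9282 normalized read counts among TG mice, against 8438, 9612 and 9948 among WT mice, so that the TG values lay within the range of the WT values. Its log2 fold change was -0.02 and that of Kmt2c -0.04, with standard errors of 0.06 and 0.05. Setd1a, which methylates the same residue and is also linked to schizophrenia, had 941.3, 926.2 and 1009 normalized read counts among TG mice, against 1056, 995.1 and 1058 among WT mice. A protein-coding gene on the same strand, Gm49388, shares 51.85% of its exon bases in GENCODE M21. The lowest WT value lay below the highest TG value, and the log2 fold change was -0.11 (SE 0.06, limma adjusted P = 0.971).

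Lysine 36 of histone H3 is the substrate of Setd2, Nsd1 and Ash1l, and it is marked in transcribed genes. Setd2 had a log2 fold change of 0.05 and Nsd1 of 0.04, while Ash1l had -0.02, with standard errors between 0.04 and 0.05. For Nsd1, the TG mice had 5509, 5839 and 5821 normalized read counts and the WT mice 5548, 5500 and 5596, with 1 TG library inside the WT range. Ehmt1, which with its partner G9a writes repressive lysine 9 methylation, had a log2 fold change of -0.03 (SE 0.06). Setd5, a SET-domain protein found with co-repressors, had 0.01 (SE 0.05). None of the 8 genes of this group passed an unadjusted P value of 0.05, none had groups without overlap, and their median log2 fold change was -0.02.

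The 9 histone readers and transcriptional co-regulators held 2 of the 3 lower members at an unadjusted P value under 0.05, with 7 lower and 2 higher in all and a median log2 fold change of -0.03. Auts2, part of a variant Polycomb complex and among the longest genes of the mouse genome with a span of 1110 kb, had 2787, 2965 and 2789 normalized read counts among TG mice, against 2973, 3098 and 3283 among WT mice. The groups did not overlap, though TG replicate 2 and WT replicate 1 were nearly equal. Its log2 fold change was -0.13 (SE 0.05, limma adjusted P = 0.971). Phf21a, the subunit of the CoREST complex that reads unmethylated lysine 4, had 1892, 1970 and 1933 normalized read counts among TG mice, against 2013, 2097 and 2159 among WT mice. Again all TG values lay below all WT values, with a log2 fold change of -0.11 (SE 0.05, limma adjusted P = 0.971).

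Med13l, which links the kinase module to the Mediator complex, had 3651, 3917 and 4087 normalized read counts among TG mice, against 3959, 4004 and 4444 among WT mice, with a log2 fold change of -0.09 (SE 0.06). TG replicate 1 was the lowest library, and the log2 fold change lay between -0.13 and -0.04 with each mouse left out. Ankrd11, a co-regulator that recruits deacetylases, had -0.04, Tcf20 had -0.03, Pogz, a heterochromatin-binding protein, had -0.02, and Mbd5, a methyl-CpG-binding domain protein, had -0.01. Phip, a bromodomain protein, had 0.03 and Hdac4, a class IIa deacetylase that shuttles between nucleus and cytoplasm, had 0.05. These last 2 members varied most within a genotype after Adnp, with SDs of 0.13 and 0.16 on the log2 scale. Hdac4 had 1979, 1567 and 1633 normalized read counts among TG mice, against 1627, 1827 and 1522 among WT mice. TG replicate 1 was its highest library, and without it the log2 fold change was -0.05, with the opposite sign. A noncoding gene on the other strand, Gm26720, shares 22.36% of the exon bases of Hdac4 and is listed at 0.

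Of the 3 sequence-specific DNA-binding factors, 2 had a higher mean in TG mice. Tcf4, a basic helix-loop-helix E protein, had 7105, 6316 and 7043 normalized read counts among TG mice, against 6596, 7137 and 6240 among WT mice, with the lowest and the highest library both in the WT group. Bcl11a, a zinc finger repressor, had a log2 fold change of 0.02, and Ctcf, the insulator protein that with cohesin shapes chromatin loops, had -0.03. Standard errors were between 0.05 and 0.06, and the 3 genes overlapped between the groups.

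The 6 regulators of protein and RNA held both higher members, with 5 higher and 1 lower and a median log2 fold change of 0.06. Their median GC content was 41.7%, and after a correction of each library for GC content 3 of 6 were higher, with a median of 0.03. Fmr1, the RNA-binding protein FMRP that is lost in fragile X syndrome and represses translation of synaptic mRNAs, had 2636, 2611 and 2659 normalized read counts among TG mice, against 2461, 2454 and 2357 among WT mice. All TG values lay above all WT values. The log2 fold change was 0.12 (SE 0.05, limma adjusted P = 0.971) and ranged from 0.10 to 0.13 when single mice were left out. Cul3, the scaffold of a family of ubiquitin ligases, had 4356, 4346 and 4356 normalized read counts among TG mice, against 4127, 3963 and 4095 among WT mice. Its 3 TG values were within 10 normalized read counts of each other, and all were above the WT values, with a log2 fold change of 0.10 (SE 0.04, limma adjusted P = 0.971). Pooled over the 2 genotypes, the SD of Cul3 within a genotype, 0.02 (log2 scale), was the size of its counting error, 0.02. The groups differed in spread, with an SD of 5.49 normalized read counts in TG and 87.2 in WT mice.

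Trip12, a ubiquitin ligase, had 6523, 7141 and 7201 normalized read counts among TG mice, against 6408, 6361 and 6825 among WT mice. Its log2 fold change was 0.09 (SE 0.05). TG replicate 1 lay inside the WT range, and the other TG mice lay above it. Wac, which takes part in ubiquitination of histone H2B, had 0.04, and Naa15, the auxiliary subunit of the NatA acetyltransferase, had 0.02. Dyrk1a, a kinase on human chromosome 21 that is dosage-sensitive in both directions, had -0.01 (SE 0.05).

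Counted over the whole list, the groups did not overlap in 2 members with TG above WT (Fmr1 and Cul3, 6.45% of members) and in 4 with TG below WT (Adnp, Arid1b, Auts2 and Phf21a, 12.9%). Among all genes tested the shares were 5.06% and 5.05%. In GRCm38 coordinates, Fmr1 spans chrX:68678541-68717963 and Cul3 chr1:80264923-80340480, while Adnp spans chr2:168180986-168207112, Arid1b chr17:4994332-5347656, Auts2 chr5:131437333-132543344 and Phf21a chr2:92093117-92364666. Each of these 6 members had P = 0.1 in the exact permutation test (two-sided).

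Many members deviated together in single mice. Relative to the WT mean of each gene, the median member was lower by 0.07 on the log2 scale in TG replicate 1 (library median -0.073), where 8 of 31 members were above the WT mean. The median was 0.02 in TG replicate 2, with 18 of 31 above, and 0.00 in TG replicate 3 (-0.003 before rounding), with 15 of 31 above. In the WT mice it was -0.03, 0.01 and 0.02, with 7, 18 and 21 of 31 above. Thus TG replicate 1 and WT replicate 1 were the low libraries of their groups. The median of all genes tested lay within 0.002 of 0 in each library. Long genes were also low in these 2 libraries. The quintile with the most exon sequence has 3504 genes, 26 of them members. Its median difference from the mean over all 6 libraries was -0.019 in TG replicate 1 and -0.037 in WT replicate 1. It was 0.021 and 0.025 in TG replicates 2 and 3, and 0.006 and 0.008 in WT replicates 2 and 3. Of the 9 readers and co-regulators, 1 was above the WT mean in TG replicate 1 and 0 in WT replicate 1, with medians of -0.10 and -0.06. Of the 8 methyltransferases, 0 were above it in TG replicate 1 and 6 in TG replicate 2. When TG replicate 1 was left out, 18 of 31 risk genes had a higher mean in TG mice, and the median log2 fold change of the list was 0.005, with the opposite sign. It was 0.003 without WT replicate 2 and 0.003 without WT replicate 3. TG replicate 1 is the library with the high choroid plexus and low medium spiny neuron markers given above, and TG replicate 2 the one with the low cortical markers, and their part in the values of the risk genes was not tested.

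**Figure D2:**
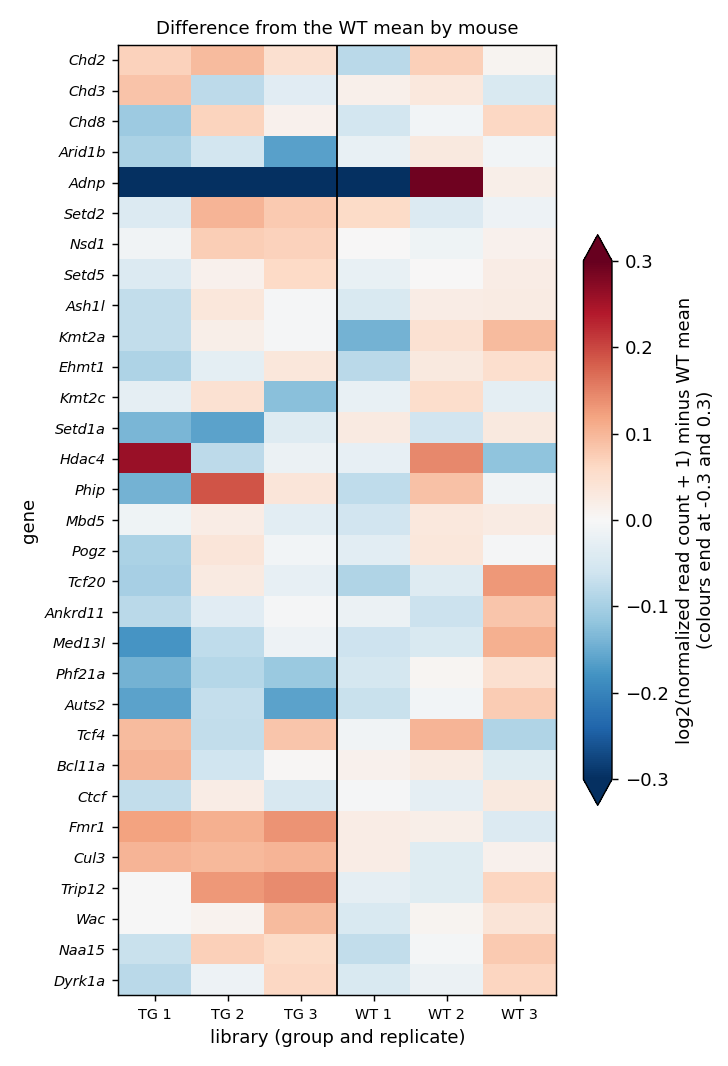
Difference of log2(normalized read count + 1) from the WT mean of each gene, for 31 risk genes (rows, ordered by role and fold change) and 6 mice (columns); red is higher and blue lower, and colours end at -0.3 and 0.3. TG replicate 1 is blue in most rows, with 8 of 31 genes above the WT mean, and Fmr1 and Cul3 are red in all 3 TG mice.

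The risk genes share features that the list did not use. All 31 have more exon sequence than the median gene tested, with a median of 14300 exon bases (from 4860 to 33310) against 4009. The same holds for the span of the gene on the chromosome, with a median of 109400 bases against 20790. In GC content they lie near the other genes, with a median of 48.1% in the longest annotated transcript against 49.5% for all genes tested, but they range from 38.5% in Cul3 to 57.0% in Setd1a. Of the 31, 26 are in the quintile of genes with the most exon sequence, where the median log2 fold change over all genes tested was 0.02, against -0.02 in the quintile with the least. After a correction of each library for exon length, the median log2 fold change of the risk genes was -0.03, and 11 of 31 were higher in TG mice.

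GC content and the genotype difference were ordered together. Over all genes tested the median log2 fold change went from 0.04 in the quintile with the lowest GC content (28.7% to 43.7%) through 0.03, 0.00 (0.004 before rounding) and -0.02 to -0.05 in the quintile with the highest (55.4% to 76.3%). Among the 31 risk genes the medians by the same quintiles were 0.04, -0.01, -0.02, -0.09 and -0.06, with 7, 7, 10, 5 and 2 genes. Spearman's rho between GC content and log2 fold change was -0.67 across the 31 genes (-0.70 without Adnp) and -0.28 across 17519 genes. The sets are not alike, since the risk genes have higher counts and vary less between mice. Their median SD is 0.06, against 0.11 for all genes tested. Against genes of like counts the gap in SD is small. The median SD is 0.07 for the 8580 genes tested with means between 500.4 and 19950 normalized read counts. This range holds all members but Adnp. Spearman's rho was not computed for these 8580 genes. Genes of the same libraries are not independent replicates, so no P value is given. The order differed between mice, since genes of the highest quintile were above their mean over the libraries in TG replicate 1 (0.03) and below it in TG replicates 2 (-0.06) and 3 (-0.04). In WT replicates 1, 2 and 3 they were above it, by 0.04, 0.01 and 0.03, so that TG replicate 1 went with the WT mice.

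Both higher members are at the low end of GC content, Fmr1 with 39.2% and Cul3 with 38.5%. The lower members Auts2 (54.4%), Arid1b (52.9%) and Phf21a (50.9%) are above the median of all genes tested, 49.5%. The lower member Adnp (48.1%) is below it. With each library corrected for GC content, the log2 fold change was 0.08 for Fmr1 (unadjusted limma P value of 0.0939), 0.06 for Cul3 (0.188), -0.11 for Auts2 (0.0775), -0.09 for Arid1b (0.0883), -0.11 for Phf21a (0.0368) and -0.47 for Adnp (0.0207). Thus 2 members, both lower, had an unadjusted P value under 0.05, beside 3.17% of all genes, and 9 of 31 members, 29.0%, were higher in TG mice against 50.5% of all genes. The groups then did not overlap in 1 member with TG above WT, Fmr1, and in 3 with TG below WT, beside 4.25% and 4.13% of all genes.

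**Figure D3:**
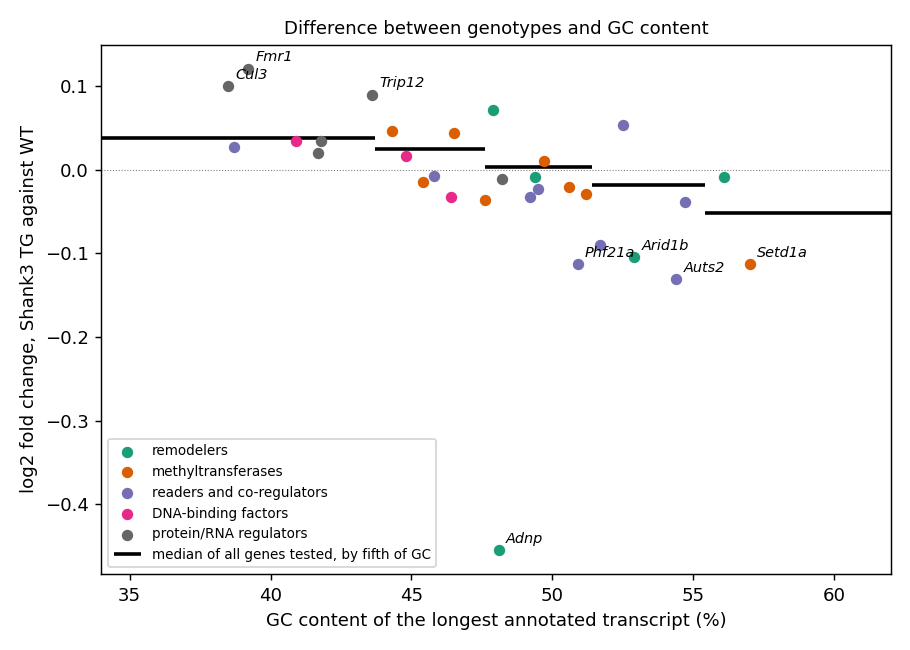
Striatal log2 fold change (TG over WT) against the GC content of the longest annotated transcript, 1 point per risk gene coloured by role. Black bars give the median of all genes tested in each quintile of GC content, from 0.04 at the left to -0.05 at the right; Fmr1 and Cul3 lie at the low-GC end above 0, and Auts2, Arid1b and Setd1a at the high-GC end below 0.

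Per kb of exon, the level of the risk genes covered a wide range. Chd3 led with 2290 normalized read counts per kb, followed by Cul3 with 863, Wac with 588, Kmt2a with 555 and Ankrd11 with 542. At the lower end were Mbd5 with 119, Hdac4 with 107, Phip with 76.7 and Adnp with 13.9, the last with the limit of its gene model. The median member had 246 and the median gene tested 121. Of the 30 pairs of neighbours in this order, 22 had overlapping values per kb among the 6 mice. The 8 that did not overlap were Chd3 over Cul3, Cul3 over Wac, Ctcf over Ash1l, Trip12 over Nsd1, Nsd1 over Dyrk1a, Auts2 over Mbd5, Hdac4 over Phip and Phip over Adnp. Exon length here is the union over annotated transcripts, which is 33.3 kb for Phip.

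**Figure D4:**
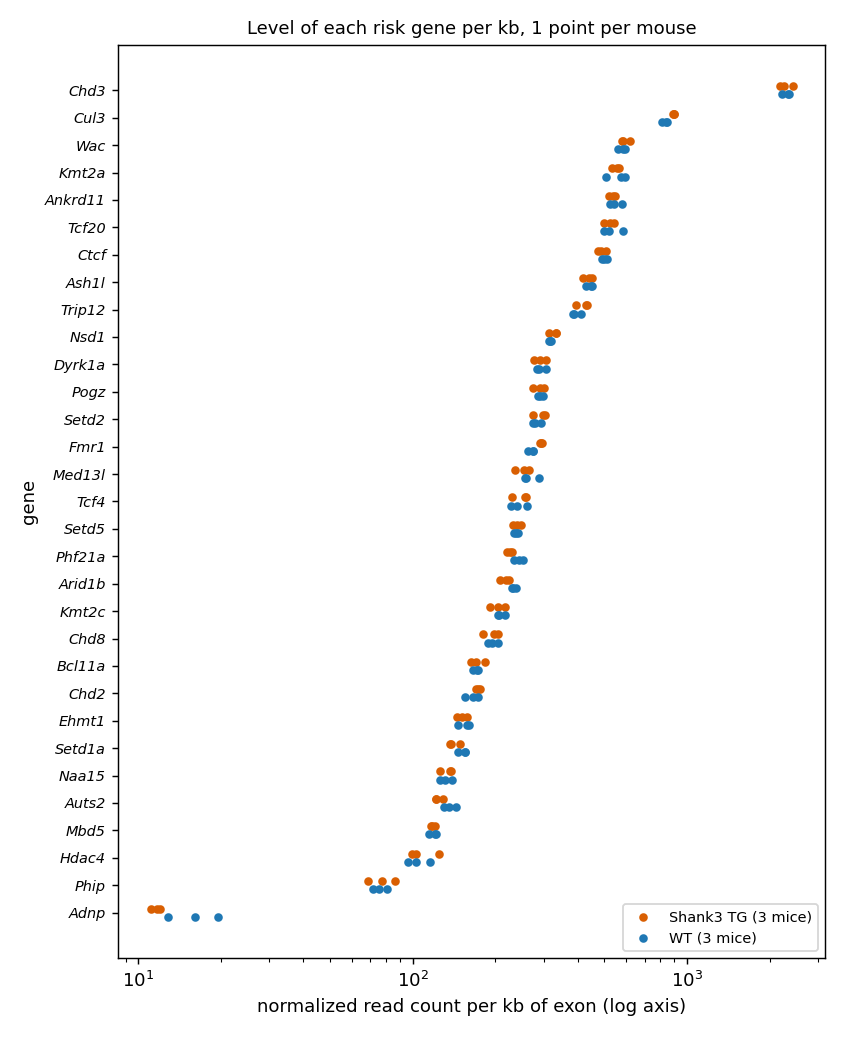
Normalized read count per kb of exon (log axis) for the 31 risk genes, 1 point per mouse, Shank3 TG in orange and WT in blue. Chd3 is highest at 2290 and Adnp lowest at 13.9 (means over 6 mice), and the points of the 2 genotypes overlap in each row except those of Fmr1, Cul3, Adnp, Arid1b, Auts2 and Phf21a.

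Partners and paralogs of the risk genes, 153 genes in 15 lists, served as a wider view of the same machinery, and 152 of them were tested. None was called at a limma adjusted P value under 0.05, and DESeq2 and edgeR also called 0. At an unadjusted P value under 0.05, 1 gene was higher (limma), and 9 were lower, 0.658% and 5.92% of them, beside 1.98% and 2.33% of all genes tested. DESeq2 had 3 and edgeR 9 at that limit. The median log2 fold change was 0.01, with 83 higher and 69 lower. The groups did not overlap in 4 partner genes with TG above WT (2.63%) and in 10 with TG below WT (6.58%). Among all genes tested the shares were 5.06% and 5.05%.

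The list of COMPASS complexes holds subunits that serve Kmt2a, Kmt2c or Setd1a, and the paralogs Kmt2b, Kmt2d, Kmt2e and Setd1b. Of its 13 genes 3 were higher and 10 lower, with a median of -0.04. After the correction for GC content 3 of 13 were higher, with a median of -0.05. Setd1b, the paralog of Setd1a, had 1898, 2028 and 2088 normalized read counts among TG mice, against 2134, 2314 and 2386 among WT mice, without overlap and with a log2 fold change of -0.18 (SE 0.06, limma adjusted P = 0.971). The methyltransferase Kmt2b had -0.12 and the demethylase Kdm6a 0.13. In the list of G9a/GLP and CoREST, the partners of Ehmt1 and Phf21a, 4 of 9 genes were higher, with a median of 0.00 (-0.002 before rounding). After the correction for GC content 5 of 9 were higher, with a median of 0.00. Ehmt2 (G9a) had -0.10, its zinc finger partner Wiz -0.14 and the CoREST subunit Hmg20b -0.19, each with TG below WT in all mice. Kdm1a, the demethylase of CoREST, had 0.05 with TG above WT.

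Fbrsl1, a paralog of Auts2, had 1957, 1792 and 1804 normalized read counts among TG mice, against 2108, 2072 and 2119 among WT mice. Its log2 fold change of -0.18 (SE 0.05, limma adjusted P = 0.971) had the smallest unadjusted P value of the 152 genes, 0.00481. The E protein Tcf3 had -0.15, the Mediator kinase module subunit Med12 -0.13 and the kinase Dyrk1b -0.18. The GC content of the 9 lower genes was between 52.7% (Med12) and 62.8% (Dyrk1b), and that of Kdm6a, the higher one, was 42.5%.

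Other lists leaned one way by small amounts. Of the BAF subunits 12 of 15 were lower, with a median of -0.03 and a median GC content of 51.6%, and of the cohesin genes 9 of 10 were higher, with a median of 0.03 and a median GC content of 42.4%. After the correction for GC content 10 of 15 BAF subunits were lower and 4 of 10 cohesin genes were higher, with medians of -0.03 and -0.01. Of the cullin-RING and H2B ubiquitin genes 10 of 14 were higher, with a median of 0.04, and 10 of 14 after the correction. The other 11 lists, that of G9a/GLP and CoREST among them, had medians between -0.06 and 0.07.

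Promoter windows of RefSeq (GRCm38.p6) were at hand for 24 of the 31 risk genes, with 29 windows for their annotated starts. In the 250 bases before the start, the ratio of observed to expected CpG dinucleotides had a median of 0.845, against 0.675 in the 15895 windows of genes tested here and 0.373 in all 32851 windows, and it was over 0.6 in 23 of 29 windows (79.3%, against 58.5% for the genes tested). The GC box GGGCGG, read on both strands, was in 22 of 29 windows (75.9%), against 53.8% of those of the genes tested and 32.7% of all. The letters CCGGAAGT of ETS-type factors and TGACGTCA of the cAMP response element, read on both strands, were in 0 of 29, against 4.99% and 2.38% for the genes tested and 2.88% and 1.55% of all windows. None of the 3 motifs contains another, and a match is a description of the sequence only. To show the extremes, the window with the highest CpG ratio and 1 of the 2 with the lowest are given 5′ to 3′, with CpG in capitals, followed by the other start of the latter gene. The other window with a ratio of 0 is a start of Setd5 (chr6:113104685-113104934). They are a start of Dyrk1a (chr16:94569956-94570205, plus strand, CpG ratio 1.28), a start of Phf21a (chr2:92221222-92221471, plus strand, ratio 0) and another start of Phf21a (chr2:92185233-92185482, plus strand, ratio 0.855). Counts per gene do not tell which start was used.

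Dyrk1a: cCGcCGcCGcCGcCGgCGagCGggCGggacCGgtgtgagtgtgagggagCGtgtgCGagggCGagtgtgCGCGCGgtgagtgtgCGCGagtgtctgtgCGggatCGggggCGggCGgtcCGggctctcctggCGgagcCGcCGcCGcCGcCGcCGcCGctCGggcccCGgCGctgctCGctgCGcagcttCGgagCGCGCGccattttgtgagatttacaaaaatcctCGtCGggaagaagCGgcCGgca
Phf21a, lowest ratio: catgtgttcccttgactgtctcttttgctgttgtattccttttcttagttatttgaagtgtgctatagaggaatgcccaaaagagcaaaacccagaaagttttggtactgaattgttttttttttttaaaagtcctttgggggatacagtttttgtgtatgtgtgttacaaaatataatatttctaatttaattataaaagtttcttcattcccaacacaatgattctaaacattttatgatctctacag
Phf21a, other start: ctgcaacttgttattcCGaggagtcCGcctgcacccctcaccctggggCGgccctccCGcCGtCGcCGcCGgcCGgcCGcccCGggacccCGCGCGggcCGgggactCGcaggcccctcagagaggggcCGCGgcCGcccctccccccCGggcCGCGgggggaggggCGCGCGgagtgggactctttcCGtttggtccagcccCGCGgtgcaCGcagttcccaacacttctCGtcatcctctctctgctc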

How the data were processed

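Striatal RNA of 3 Shank3 TG and 3 WT mice was sequenced with the TruSeq RNA Sample Prep Kit v2, which does not mark strand. The authors trimmed reads with Trimmomatic 0.35, aligned them with TopHat2 2.1.0 to GRCm38, counted them with HTSeq and deposited a signal per gene, the count divided by the DESeq2 size factor. Whole reads were recovered for 100% of values (within 0.01). Log2(value + 1) was fitted with limma 3.58.1 (R 4.3.3; mean-variance trend, Benjamini-Hochberg adjustment over 17605 genes with a mean of at least 10). Alternatives were DESeq2 1.42.0, edgeR 4.0.16 and voom on the recovered reads, scaling by TMM or by library totals, a minimum mean of 50 or none, a pseudocount of 0.5 or 5, an adjusted P value of 0.1, leaving out single libraries, a replicate block, and loess corrections (span 0.3) for exon length and GC content, which 99.51% of genes had. The fit was tested on simulated data. Members and lists were chosen with earlier results of these data known. All members are named. Values per mouse are given for those with an unadjusted P value under 0.05, without overlap, the 3 highest and lowest by fold change and the most and least abundant per kb. Others were added for their range, after their values were seen, as were Kdm1a and the other start of Phf21a. GC content is that of the longest annotated transcript. Partner genes are named at an unadjusted P value under 0.05. Exon bases shared with another annotated gene were found for 17 members, and for 5 of them (Adnp, Hdac4, Chd2, Ctcf and Chd8) over 5% were shared with a gene of the table. For Hdac4, Ctcf and Chd8 that gene is on the opposite strand, and without strand such reads cannot be told apart. For Adnp and Chd2 it is on the same strand, where strand would not tell them apart either. The labels do not say whether the mice shared litters.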

Additional observations from a re-analysis of the deposited data

How the results depend on the processing

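No risk gene was called at an adjusted P value under 0.05 under any of the 20 alternative fits, and 0 were called at 0.1. None of the 152 partner genes tested was called either. The median log2 fold change stayed between -0.03 and 0.00 (-0.029 and -0.004) in the 14 fits with all libraries and between -0.035 and 0.005 with each library left out. The number higher in TG mice was between 9 and 13, and between 10 and 18 with each library left out. For the 7 members named by rule (Arid1b, Adnp, Phf21a, Auts2, Trip12, Cul3 and Fmr1) the direction was the same in all 20. The next counts were added after the data were seen. The 5 members at an unadjusted P value under 0.05 (4.31% of all genes) were 3 with DESeq2 (2.45%), 3 without a filter (4.19%), 2 with the GC correction (3.17%), 3 with GC correction and replicate block (4.22%), 6 with the length correction (4.52%), 7 with length correction and replicate block (5.63%), and between 0 and 5 with each library left out; the cause was not tested. With the replicate block alone, 6 members had an unadjusted P value under 0.05 (5.82%) and 0 were called. Deviations of same-numbered mice from their group means correlated by 0.201, 0.0526 and 0.171, and those of different-numbered mice by -0.257 to 0.149. The labels give no pairing, so the main fit had no block. Whether same-numbered mice shared a batch was not tested. The 6 members without overlap (5.06% of all genes above, 5.05% below) were 4 with the GC correction (4.25% and 4.13%), 8 with the length correction (5.27% and 5.01%), 6 with TMM scaling (4.9% and 5.24%) and 5 with library totals (5.69% and 4.74%).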
